A study of Mus musculus and Homo sapiens
Mus musculus with 14 samples.

Results

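TH-negative amacrine cells (TH-) were compared with the bipolar cell layer (BCL) of the mouse retina, taking the 5 TH- libraries of the amacrine experiment and the 4 BCL libraries of the layer experiment. The groups were chosen from the labels, and 9 of the 14 samples of the series, or 9 of its 22 retinal libraries, entered the comparison. In Light-Seq, RNA in a fixed section is reverse transcribed where it lies, and light then attaches a DNA barcode to the cDNA of a chosen region, so that sequencing reads can be assigned to that region. In the layer experiment, the outer nuclear layer (ONL), the BCL and the ganglion cell layer (GCL) of 4 sections were each given a barcode. In the amacrine experiment, TH antibody staining guided the barcoding of dopaminergic amacrine cells (TH+) and of neighbouring TH- amacrine cells in 5 sections. All retinas were of WT genotype and, by the study's methods, came from CD1 IGS mice (Charles River) in the third postnatal week, with no treatment.

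The comparison asks which RNAs set the inhibitory interneurons of the inner retina apart from the layer of excitatory interneurons. The BCL region is not pure: beside bipolar cells it holds the cell bodies of horizontal cells and Müller glia. The TH- and BCL libraries also differ in experiment. The sections, the TH stain, a more stringent wash, the barcode and the sequencing instrument all changed with the group, so experiment and cell type cannot be told apart in any difference given here. The TH- barcode (AGGGTA) was the one given to the GCL in the layer experiment, and the BCL barcode (GTTAGG) was the one given to TH+ cells. The 4 layer sections came from 1 animal, and the study's methods speak of 1 source animal where they follow up the amacrine experiment. Every adjusted p therefore measures only the spread between sections and is too small for a statement about animals. It is called the section-level adjusted p below.

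Amacrine cells release GABA or glycine onto bipolar, ganglion and other amacrine cells, and they are the most diverse neurons of the retina. Bipolar cells carry the signals of rods and cones to the inner retina with glutamate. ON bipolar cells sense photoreceptor glutamate with the metabotropic receptor mGluR6, whose G protein keeps the cation channel TRPM1 shut in darkness.

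TH- libraries 1 to 5 held 152105, 172838, 134394, 200344 and 141886 UMIs (unique molecular identifiers, each counting 1 cDNA molecule). BCL libraries 1 to 4 held 193869, 208437, 196794 and 202274 UMIs. These numbers also depend on the barcoded area and the sequencing depth, so a difference is not a trait of the cells alone. By the study, the amacrine libraries were sequenced below saturation. The TH- mean of 160313 ± 26637 UMIs (SD, n = 5) was below the BCL mean of 200344 ± 6423 (SD, n = 4), with p = 0.0397 in a two-sided exact permutation test. The smallest p that these group sizes allow is 0.0159. With 1 library left out at a time, it fell below 0.05 only without TH- library 4, the deepest of the TH- libraries. Genes with at least 1 UMI numbered 12288 ± 725 (SD, n = 5) per TH- library and 12927 ± 249 (SD, n = 4) per BCL library (exact permutation p = 0.159). Thinned to the 134394 UMIs of the shallowest library, they held 11797 ± 446 and 11719 ± 190 genes (exact permutation p = 0.841). The 10 most abundant genes took 9.92% ± 0.957 of TH- UMIs and 7.96% ± 0.706 of BCL UMIs, with an exact permutation p of 0.0159, the smallest these splits allow.

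Of 17518 genes listed for both experiments, 7464 had 30 or more UMIs over the 9 libraries and were tested. With edgeR's quasi-likelihood F-test and a Benjamini-Hochberg adjusted p under 0.05, 1586 genes differed, which is 21.2% of those tested. TH- was higher for 823 of them (11.0%) and BCL for 763 (10.2%), and 957 exceeded a log2 fold change of 1 in size, 529 toward TH- and 428 toward BCL. Fold changes are given as TH- over BCL, so that positive values mean more RNA in TH- libraries. The median log2 fold change over all tested genes was -0.04. The 5 TH- libraries lay entirely above or below the 4 BCL libraries for 1368 tested genes (18.3%), of which 1182 were called. In these bulk regions, more cells of a type and more RNA per cell cannot be told apart.

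**Figure D1:**
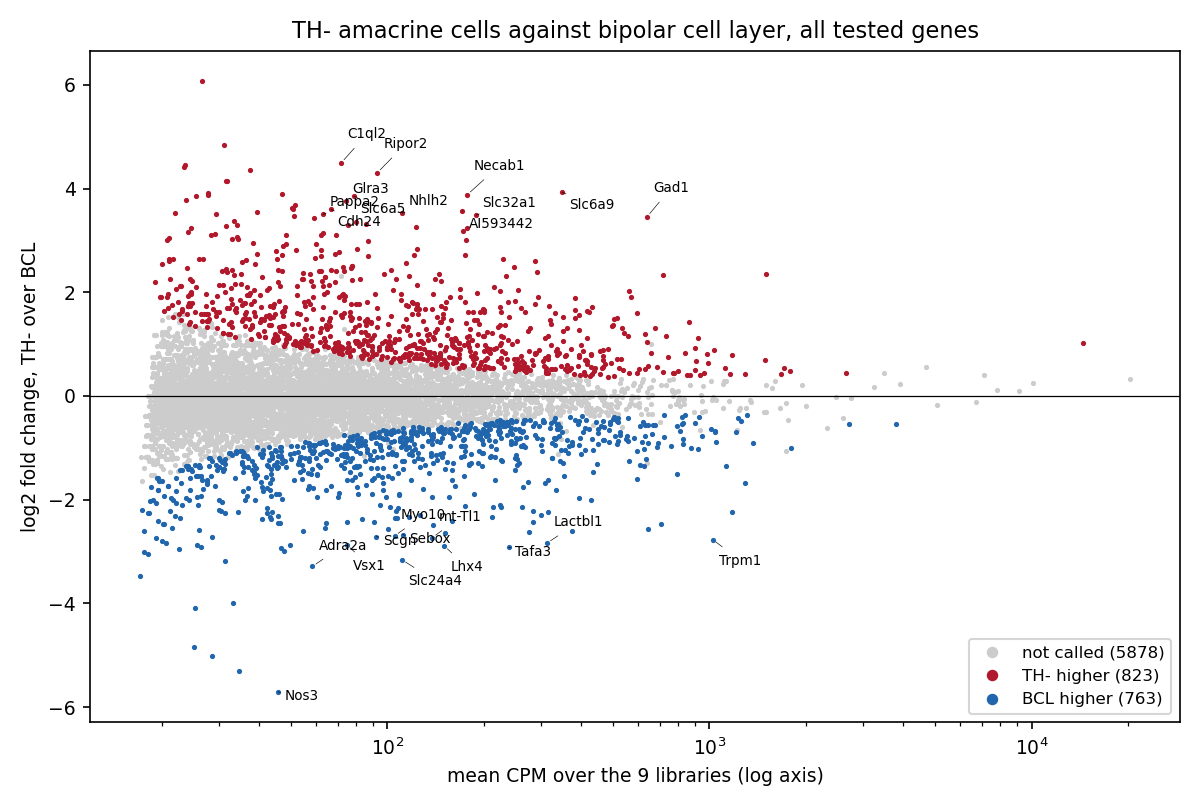
Log2 fold change of TH- over BCL against mean abundance (CPM, a gene's UMIs scaled by the UMI total of the library; log axis) for each tested gene, with 823 genes higher in TH- in red and 763 higher in BCL in blue. Labelled are the 12 genes per direction with the largest changes among called genes that reached 100 CPM in the higher group and did not overlap between groups, with Slc6a9 and Gad1 at upper right and Trpm1 at lower right.

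The genes that mark the groups by label were looked at first. Gad1, which encodes a glutamate decarboxylase that makes GABA, measured 1131, 793, 729, 1168 and 1551 CPM in TH- libraries 1 to 5 and 82.5, 106, 81.3 and 119 CPM in BCL libraries 1 to 4. The groups were far apart, with a log2 fold change of 3.46 (SE 0.21, section-level adjusted p = 7.99e-14), an 11.0-fold difference. Slc32a1, the transporter that loads GABA and glycine into synaptic vesicles, measured 316, 243, 260, 294 and 472 CPM in TH- and 36.1, 14.4, 15.2 and 44.5 CPM in BCL, a log2 fold change of 3.49 (SE 0.28, section-level adjusted p = 4.82e-15). TH- library 5 was the highest for both genes. Gm14204, an antisense gene with 44 UMIs in TH- and 1 in BCL, shares exon bases with Slc32a1. By the study's supplement the authors counted with featureCounts at default settings, which ignore strand, so the strand of a read did not separate the pair.

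Trpm1, the channel at the end of the mGluR6 cascade, ran the other way. It measured 112, 428, 662, 180 and 63.4 CPM in TH- libraries 1 to 5 and 1872, 2029, 1961 and 1898 CPM in BCL libraries 1 to 4. No TH- library reached the BCL range, but TH- libraries 2 and 3 stood above the other 3. The log2 fold change was -2.77 (SE 0.50, section-level adjusted p = 0.00546). In the GRCm39 assembly the genes lie at chr2:70383416-70432372 (Gad1), chr2:158452605-158464883 (Slc32a1) and chr7:63803583-63922019 (Trpm1), each on the plus strand.

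The other retinal libraries give these levels a scale within each experiment. Gad1 averaged 751 CPM in TH+ (SD 130, n = 5), 439 in GCL (SD 51.3, n = 4) and 79.3 in ONL (SD 40.2, n = 4). The GCL holds displaced amacrine cells, and within the layer experiment its 4 libraries all lay above the 4 BCL libraries for Gad1. Slc32a1 showed the same order there, with 93.4 CPM in GCL (SD 6.10, n = 4) and 23.8 in ONL (SD 10.6, n = 4). Trpm1 was low in each of the other populations, at 173 CPM in TH+ (SD 121, n = 5), 43.3 in GCL (SD 18.5, n = 4) and 122 in ONL (SD 40.6, n = 4).

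**Figure D2:**
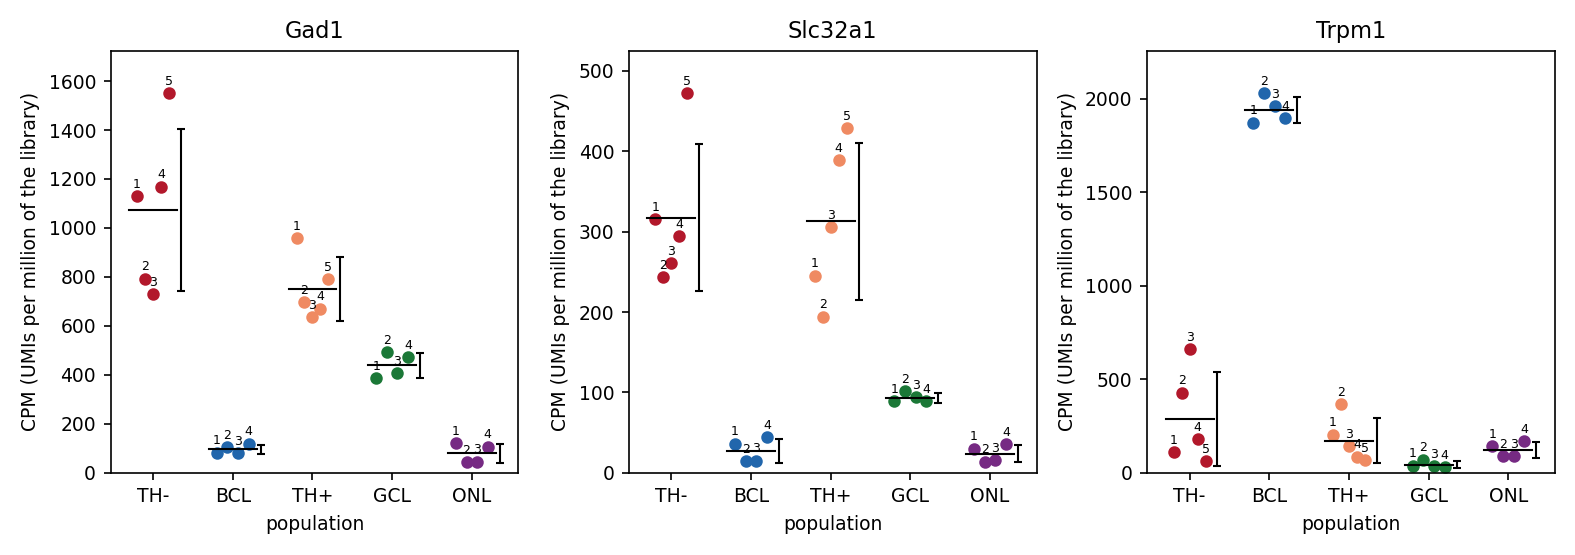
CPM of Gad1, Slc32a1 and Trpm1 in each of the 22 retinal libraries, with the section number beside each point, a line at the mean and a bar of 1 SD to each side. Gad1 and Slc32a1 were higher in all 5 TH- libraries than in any BCL library, whereas Trpm1 reached 1872 to 2029 CPM in BCL and 63.4 to 662 CPM in TH-.

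Promoter sequence was examined for these markers, because Otx2, whose product binds the core TAATCC as CRX does, was called toward BCL, and AP-2 factor genes, whose products bind GCCNNNGGC, were called toward TH-. Each window is 300 bases around a RefSeq gene start of the GRCm38.p6 assembly, an older build than that of the counts. Both motifs were searched on both strands, and matches stand in capitals. The Trpm1 window is the first of 2 listed, chr7:64153585-64153884 on the plus strand, and holds GGATTA at bases -34 to -29 and GCCTTGGGC at -202 to -194 from the start. The Gad1 window, chr2:70561879-70562178 on the plus strand, holds GGATTA at -203 to -198.
Trpm1: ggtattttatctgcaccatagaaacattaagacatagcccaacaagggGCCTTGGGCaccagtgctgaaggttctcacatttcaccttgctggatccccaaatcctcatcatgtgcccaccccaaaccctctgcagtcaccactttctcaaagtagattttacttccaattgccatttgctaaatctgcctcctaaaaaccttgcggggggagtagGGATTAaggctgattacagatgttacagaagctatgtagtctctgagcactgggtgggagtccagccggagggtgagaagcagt
Gad1: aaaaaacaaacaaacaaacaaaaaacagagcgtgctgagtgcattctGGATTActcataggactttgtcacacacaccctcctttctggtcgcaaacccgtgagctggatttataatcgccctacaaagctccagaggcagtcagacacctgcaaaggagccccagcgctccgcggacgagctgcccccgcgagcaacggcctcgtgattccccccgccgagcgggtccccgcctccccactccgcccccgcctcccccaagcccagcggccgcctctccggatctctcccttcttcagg

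Neither motif was found in the Slc32a1 window. TAATCC was present in 7.16% of all 27025 windows, in 5.22% of the 5878 windows of tested genes, in 4.62% of the 628 of genes higher in TH- and in 8.19% of the 574 of genes higher in BCL. Among called members of the 3 bipolar lists described below it was present in 4 of 23 windows (Trpm1, Isl1, Cabp5 and Kcng4), and among called amacrine factors and transmitter genes in 2 of 13 (Prdm13 and Gad1). GCCNNNGGC was present in 16.5% of all windows, 27.4% of those of tested genes, 28.7% of those of genes higher in TH- and 26.8% of those of genes higher in BCL. It stood in 4 of 23 windows of the bipolar lists and in 4 of 13 of the amacrine lists. A match is a description of the letters and not a binding site.

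The machinery of inhibitory transmission was the family with the largest median difference among lists with more than 1 tested member. Of 8 genes for the GABA and glycine phenotype, all tested, 7 were higher in TH- (11.0% of all tested genes were) and none in BCL, with a median log2 fold change of 3.35 against -0.04 over all genes. Slc6a9, the glycine transporter GlyT1, measured 500, 509, 558, 649 and 775 CPM in TH- and 36.1, 38.4, 35.6 and 44.5 CPM in BCL, and had the smallest p of any tested gene (log2 fold change 3.93, SE 0.22, section-level adjusted p = 9.94e-22). Its GCL mean of 39.8 CPM (SD 12.3, n = 4) lay at the BCL level, and its TH+ mean was 463 CPM (SD 132, n = 5). Slc6a5, the neuronal glycine transporter GlyT2, measured 138, 116, 89.3, 155 and 176 CPM in TH- and 0, 14.4, 10.2 and 9.89 CPM in BCL (log2 fold change 3.85, SE 0.41, section-level adjusted p = 3.26e-11). Markers of glycinergic cells were therefore as strongly shifted as those of GABAergic cells. Slc6a9 shares exon bases with 3 genes of the other strand, of which B4galt2 had 33 UMIs in TH- and 31 in BCL.

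Gad2, the second GABA-making enzyme, was named after its values were seen and measured 355, 255, 238, 195 and 430 CPM in TH- and 46.4, 19.2, 20.3 and 34.6 CPM in BCL (log2 fold change 3.25, SE 0.28, section-level adjusted p = 1.79e-13). Abat, which breaks GABA down, was also called, while Aldh5a1, the next enzyme of that route, was not. Together the 8 genes took 0.511%, 0.411%, 0.430%, 0.510% and 0.702% of the UMIs of TH- libraries 1 to 5. They took 0.0913%, 0.0897%, 0.0742% and 0.105% of those of BCL libraries 1 to 4, a 5.70-fold difference of the means. The lowest TH- shares were those of libraries 2 and 3.

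**Figure D3:**
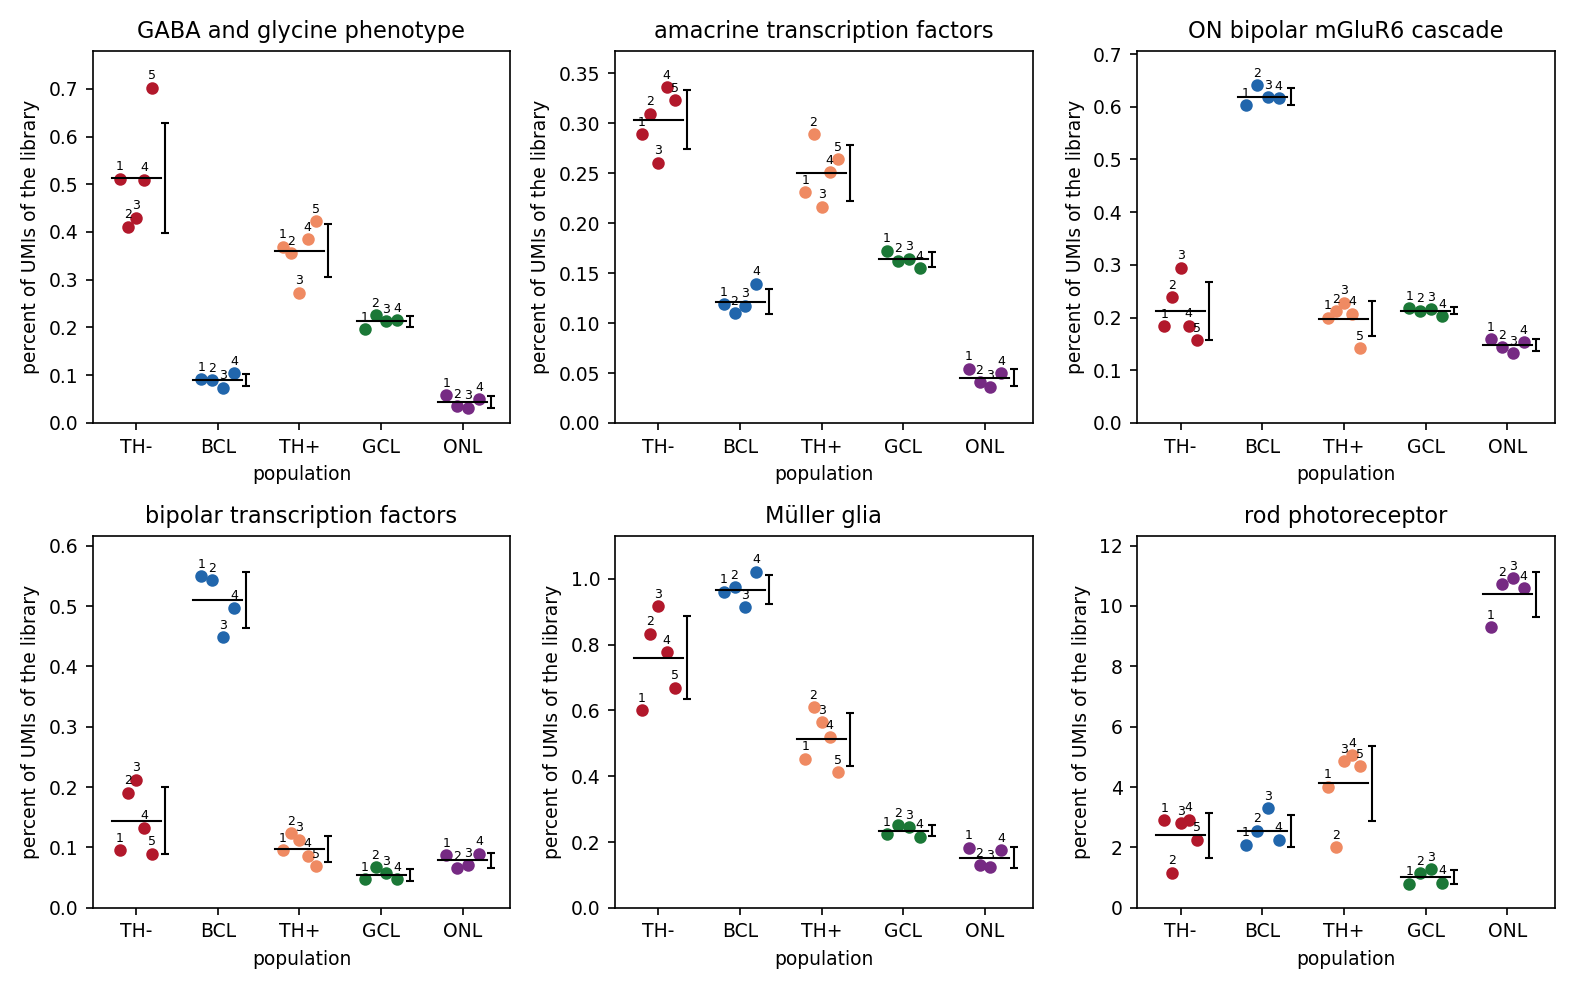
Share of UMIs taken by 6 gene lists in each of the 22 retinal libraries (percent of the library's UMIs), with the section number beside each point, a line at the mean and a bar of 1 SD to each side. TH- libraries 2 and 3 were the lowest TH- libraries for the GABA and glycine genes and the highest for both bipolar lists, and the rod share of the TH- and BCL libraries overlapped.

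Transcription factors of amacrine cells moved with the transmitter genes. Of 16 listed, 12 were tested, 9 were higher in TH- (11.0% of all tested genes) and none in BCL, with a median log2 fold change of 1.77. Tfap2a, an AP-2 factor that acts in amacrine development, measured 256, 307, 260, 260 and 352 CPM in TH- and 30.9, 33.6, 45.7 and 29.7 CPM in BCL (log2 fold change 3.01, SE 0.25, section-level adjusted p = 6.85e-15). Its paralog Tfap2b was more abundant per length in both groups, at 133 against 58.6 CPM per kb in TH- and 44.1 against 7.13 in BCL. Tfap2b reached 603 to 1033 CPM in TH- and 248 to 307 CPM in BCL, a smaller log2 difference of 1.60 (SE 0.15, section-level adjusted p = 1.06e-12). BCL libraries thus held a clear Tfap2b signal, and horizontal cells are known to express this factor.

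Pax6, a retinal progenitor factor kept in amacrine, horizontal and ganglion cells, measured 439 to 705 CPM in TH- and 91.5 to 198 CPM in BCL (log2 fold change 1.89, SE 0.18, section-level adjusted p = 8.08e-13). Meis2 ranged from 256 to 359 CPM in TH- and from 76.2 to 114 CPM in BCL (log2 fold change 1.66, SE 0.20, section-level adjusted p = 2.39e-09). Tfap2c, Ebf3, Barhl2, Prdm13 and Nr4a2 were the other called members, Neurod2, Ebf1 and Tcf4 were tested and not called, and Ptf1a, Neurod6 and Lhx9 had too few UMIs. As a share of UMIs the list rose from 0.110% to 0.139% in BCL to 0.260% to 0.336% in TH-, and the TH+ mean was 0.250% (SD 0.0284, n = 5). The GCL mean of 0.164% (SD 0.00722, n = 4) lay between them.

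Markers of single amacrine types were thinly covered. Of 14 neuropeptide genes only Cartpt was tested, with 112, 116, 134, 185 and 169 CPM in TH- and 15.5, 14.4, 15.2 and 24.7 CPM in BCL (log2 fold change 3.00, SE 0.34, section-level adjusted p = 1.94e-10). It averaged 2394 CPM in TH+ (SD 786, n = 5), and the TH- level was thus far below that of the neighbouring dopaminergic cells. Of 10 starburst and monoamine amacrine genes, 5 were tested, 4 were higher in TH- (11.0% of all tested genes were) and 1 in BCL (10.2%), with a median of 1.83. Slc18a3, the vesicular acetylcholine transporter of starburst cells, had 37 UMIs in TH- and 2 in BCL, a ratio of 18.5 (95% exact interval 4.77 to 158, counting error only; section-level adjusted p = 9.27e-06).

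Slc17a8, the vesicular glutamate transporter VGLUT3 of a glutamate-releasing amacrine type, measured 19.7, 40.5, 74.4, 110 and 35.2 CPM in TH- and 5.16, 9.60, 5.08 and 0 CPM in BCL. Its log2 fold change was 3.37 (SE 0.59, section-level adjusted p = 1.03e-05), and the GCL mean was 3.82 CPM (SD 1.24, n = 4). Nos1, the neuronal nitric oxide synthase, overlapped between the groups, since TH- library 2 stood at 23.1 CPM against 70.5 to 134 CPM in the other TH- libraries and 10.2 to 33.6 CPM in BCL (log2 fold change 1.83, SE 0.40, section-level adjusted p = 0.00033). Chat, which makes acetylcholine, was named after its values were seen and was called with 28 UMIs in TH- and 8 in BCL (log2 fold change 1.74, SE 0.60, section-level adjusted p = 0.0287). That call ended with DESeq2 (adjusted p = 0.0818), under the replicate block (0.172) and without TH- library 4 (0.104), TH- library 5 (0.135), BCL library 1 (0.0855) or BCL library 4 (0.0962). Megf10, a receptor that spaces starburst and horizontal cells in their mosaics, went against the list, with 26.3 to 74.4 CPM in TH- and 129 to 152 CPM in BCL (log2 fold change -1.38, SE 0.26, section-level adjusted p = 3.94e-05).

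The genes with the largest changes toward TH-, by the rule of size, no overlap and at least 100 CPM, were C1ql2, Ripor2, Slc6a9, Necab1, Slc6a5, Glra3, Cdh24, AI593442, Nhlh2, Pappa2, Slc32a1 and Gad1. C1ql2, a secreted C1q-like protein of synapses, measured 112, 86.8, 67.0, 185 and 176 CPM in TH- and 0, 0, 10.2 and 9.89 CPM in BCL, where it had 4 UMIs (log2 fold change 4.49, SE 0.49, section-level adjusted p = 2.64e-10). Ripor2, an inhibitor of a small GTPase, measured 197, 104, 119, 175 and 211 CPM in TH- and 10.3, 4.80, 10.2 and 4.94 CPM in BCL (log2 fold change 4.30, SE 0.40, section-level adjusted p = 5.58e-13). Both were above the BCL in the GCL libraries too, with means of 54.5 CPM (SD 8.03, n = 4) for C1ql2 and 82.5 CPM (SD 8.67, n = 4) for Ripor2.

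Necab1, a neuronal calcium-binding protein, reached 208 to 393 CPM in TH- and 4.80 to 36.1 CPM in BCL (log2 fold change 3.88, SE 0.29, section-level adjusted p = 4.92e-16). Cdh24, a cadherin, and Nhlh2, a basic helix-loop-helix factor of neurons, had log2 fold changes of 3.60 and 3.52, which became 4.32 and 4.18 without BCL library 4, the highest BCL library for both. Their lowest values over the other settings were 3.22 and 3.14. Pappa2, a protease of insulin-like growth factor binding proteins, had a log2 fold change of 3.50 and its highest value, 204 CPM, in TH- library 5. AI593442, a protein-coding gene without a role given here, measured 246 to 382 CPM in TH- and 10.2 to 39.6 CPM in BCL (log2 fold change 3.57, SE 0.28, section-level adjusted p = 1.57e-15). Its GCL mean was 196 CPM (SD 28.8, n = 4).

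**Figure D4:**
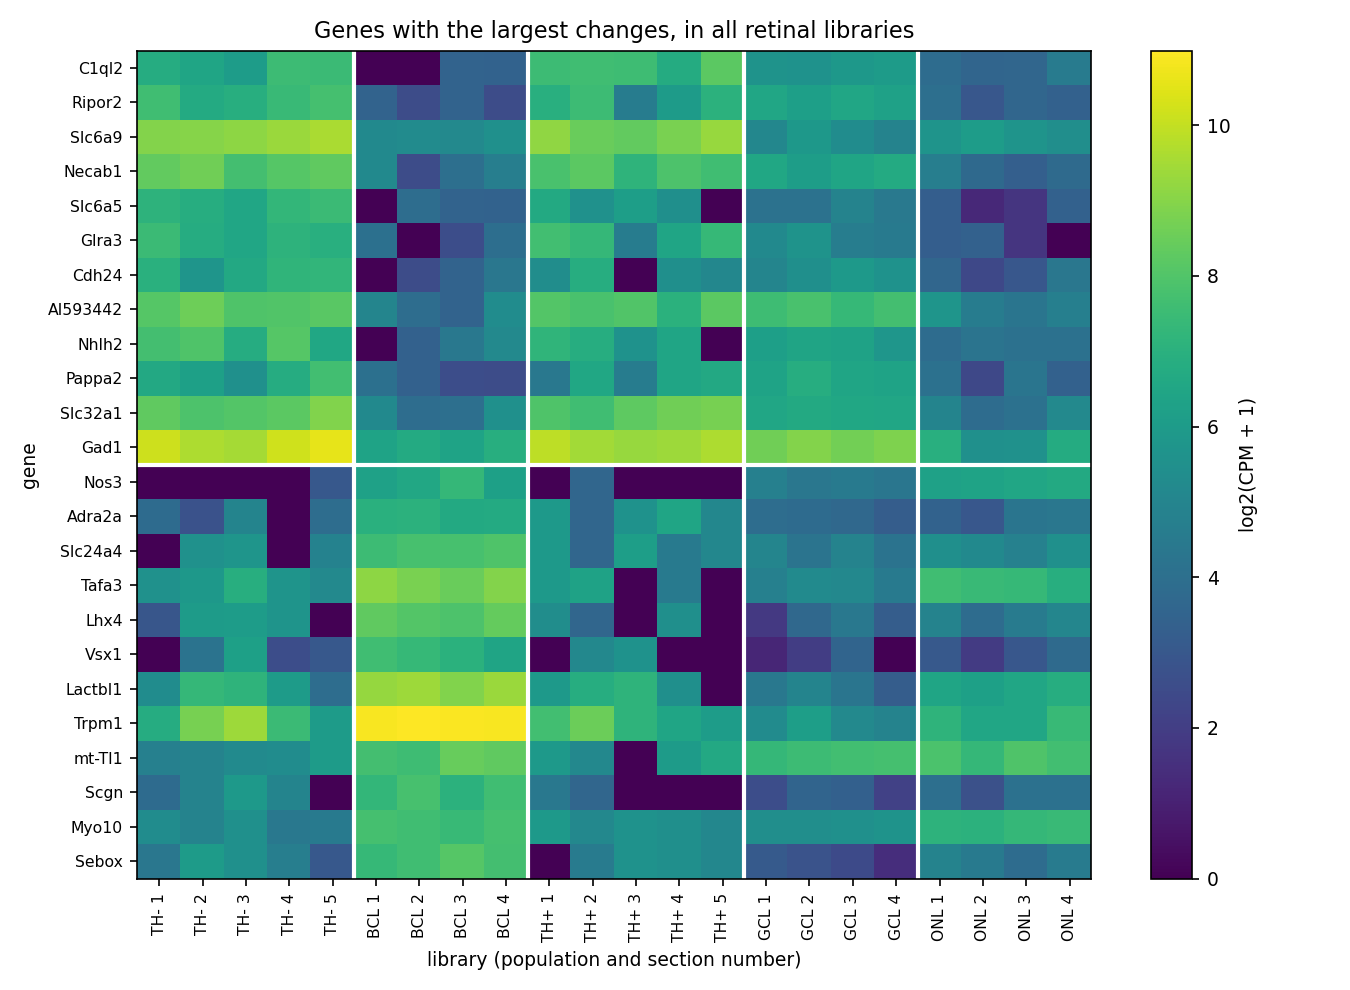
Level of the 12 genes with the largest changes toward TH- (upper block) and the 12 toward BCL (lower block) in each of the 22 retinal libraries, as log2(CPM + 1) by colour. In the lower block, TH- libraries 2 and 3 show more Trpm1 and Lactbl1 than the other TH- libraries, and Nos3 and mt-Tl1 are low in both populations of the amacrine experiment.

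Toward BCL the same rule named Nos3, Adra2a, Slc24a4, Tafa3, Lhx4, Vsx1, Lactbl1, Trpm1, mt-Tl1, Scgn, Myo10 and Sebox. Lhx4, a LIM homeodomain factor of bipolar cells, measured 6.57, 63.6, 67.0, 49.9 and 0 CPM in TH- and 320, 264, 244 and 336 CPM in BCL (log2 fold change -2.89, SE 0.32, section-level adjusted p = 1.25e-07). Slc24a4, a sodium, calcium and potassium exchanger, measured 0, 46.3, 52.1, 0 and 28.2 CPM in TH- and 186, 221, 219 and 247 CPM in BCL (log2 fold change -3.16, SE 0.37, section-level adjusted p = 1.50e-07). Lactbl1, a beta-lactamase-like protein, measured 39.4, 156, 141, 64.9 and 14.1 CPM in TH- and 614, 657, 478 and 653 CPM in BCL (log2 fold change -2.84, SE 0.33, section-level adjusted p = 2.75e-05). For these genes TH- libraries 2 and 3 were again the highest of the TH- libraries.

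Adra2a, an alpha adrenergic receptor, measured 13.1, 5.79, 29.8, 0 and 14.1 CPM in TH- and 102 to 134 CPM in BCL (log2 fold change -3.28, SE 0.40, section-level adjusted p = 2.40e-09). Tafa3, which encodes a secreted chemokine-like protein, ranged from 35.2 to 119 CPM in TH- and from 351 to 562 CPM in BCL (log2 fold change -2.92, SE 0.22, section-level adjusted p = 4.92e-16). Its ONL mean of 162 CPM (SD 33.6, n = 4) was also above the TH- range. Myo10, an unconventional myosin of filopodia, ranged from 20.0 to 44.6 CPM in TH- and from 168 to 217 CPM in BCL (log2 fold change -2.70, SE 0.28, section-level adjusted p = 1.33e-11). The ONL held 150 CPM of it (SD 19.5, n = 4).

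Nos3, the endothelial nitric oxide synthase, had 1 UMI in TH- and 81 in BCL, a ratio of 81.0 (95% exact interval 14.1 to 3239, counting error only; section-level adjusted p = 4.93e-11). Its 4 BCL libraries stood at 77.4, 96.0, 158 and 74.2 CPM, and its single TH- UMI lay in library 5. It averaged 87.3 CPM in ONL (SD 9.64, n = 4), 21.6 in GCL (SD 3.60, n = 4) and 2.29 in TH+ (SD 5.11, n = 5), so the 10 libraries of the amacrine experiment all lay below the 12 of the layer experiment. Its exons overlap those of Atg9b on the other strand, which had 2 UMIs in each group. The mitochondrial leucine tRNA gene mt-Tl1 showed the same split by experiment, with 26.3 to 63.4 CPM in TH-, 187 to 340 CPM in BCL and a TH+ mean of 51.9 CPM (SD 37.0, n = 5). GCL and ONL libraries averaged 190 CPM (SD 24.5, n = 4) and 211 CPM (SD 41.5, n = 4) of mt-Tl1 (TH- over BCL log2 fold change -2.73, SE 0.26, section-level adjusted p = 1.88e-12).

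A split of all libraries by experiment is a strict rule, because the 5 TH+ libraries held only 30317 to 87449 UMIs. The number of genes that meet it does not measure how many differences go with the experiment. All 10 libraries of the amacrine experiment lay on one side of all 12 of the layer experiment for 46 called genes (0.616% of tested genes), 35 of them higher and 11 lower in the amacrine experiment. They included Gad1, Slc32a1, Slc6a9, C1ql2, Necab1, Tfap2a, Tfap2b and Slc17a8 above, and Nos3 and mt-Tl1 below. TH+ and TH- cells are both amacrine cells, so this split does not tell experiment from cell type. Lars2, the mitochondrial leucyl-tRNA synthetase, was named after its values were seen. It measured 20177, 16663, 17970, 20864 and 17274 CPM in TH- and 7907, 8784, 9314 and 10748 CPM in BCL (log2 fold change 1.02, SE 0.11, section-level adjusted p = 3.71e-11), with 21370 CPM in TH+ (SD 1178, n = 5). Fth1, the ferritin heavy chain, likewise named after its values were seen, ran the other way, with 133 to 155 CPM in TH- and 242 to 412 CPM in BCL (log2 fold change -1.25, SE 0.18, section-level adjusted p = 1.86e-07). The mean Lars2 level in TH- lay between those of the mitochondrial ribosomal RNA mt-Rnr2 (22245 CPM) and of mt-Co1 (10846 CPM). Whether the UMIs counted for Lars2 came from its mRNA was not tested.

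Bipolar genes were described by 3 lists. Of 13 transcription factors, 11 were tested, 10 were higher in BCL (10.2% of all tested genes were) and none in TH-, with a median log2 fold change of -2.22. Otx2, which drives photoreceptor and bipolar fate, measured 65.7, 145, 193, 99.8 and 35.2 CPM in TH- and 531, 461, 523 and 499 CPM in BCL (log2 fold change -2.22, SE 0.21, section-level adjusted p = 1.18e-10). Isl1, which acts in ON bipolar, starburst and ganglion cells, measured 17.4 to 59.9 CPM in TH- and 137 to 284 CPM in BCL (log2 fold change -2.34, SE 0.27, section-level adjusted p = 5.85e-10). Zfhx4, a large zinc finger homeodomain factor, changed least of the named ones, at -1.03 (SE 0.15, section-level adjusted p = 3.53e-07).

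Vsx1, a factor of cone bipolar types, measured 0, 17.4, 74.4, 4.99 and 7.05 CPM in TH- and 196, 163, 127 and 84.0 CPM in BCL. TH- library 3 came close to the lowest BCL library. The log2 fold change was -2.87 (SE 0.51, section-level adjusted p = 0.000351), and -4.13 without TH- library 3. Its weakest value over the other settings was -2.57. Prdm8, Bhlhe23, Neurod4 and Fezf2 were called as well, Irx6 was not, and Irx5 and Lhx3 had too few UMIs.

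In the mGluR6 cascade, 13 genes were tested, 9 were higher in BCL (10.2% of all tested genes were) and 1 in TH- (11.0%), with a median of -1.84. Grm6, the receptor itself, was named after its values were seen and measured 19.7, 145, 193, 34.9 and 35.2 CPM in TH- and 542, 513, 488 and 509 CPM in BCL (log2 fold change -2.62, SE 0.43, section-level adjusted p = 0.00207). Gnb3, the G protein beta subunit of the cascade, measured 7.05 to 81.0 CPM in TH- and 219 to 278 CPM in BCL (log2 fold change -2.49, SE 0.27, section-level adjusted p = 8.94e-11). Rgs11, which speeds the G protein's return to rest, had a log2 fold change of -1.67 (SE 0.28, section-level adjusted p = 4.65e-06), and its exons overlap Fam234a on the other strand. Gnao1, the Go alpha subunit that many neurons use, differed least among these cascade genes, at 825 to 1049 CPM in TH- and 1470 to 1590 CPM in BCL (log2 fold change -0.70, SE 0.12, section-level adjusted p = 4.35e-06).

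Rgs7bp, the membrane anchor of this family of RGS proteins, went against the list with 127 to 310 CPM in TH- and 41.3 to 110 CPM in BCL (log2 fold change 1.53, SE 0.26, section-level adjusted p = 6.68e-06). It was also abundant in the GCL, at 246 CPM (SD 21.8, n = 4). Gpr179, Nyx, Gng13 and Pcp2 were the other members higher in BCL, and Lrit3, Rgs7 and Gnb5 were not called. The list took 0.183%, 0.238%, 0.295%, 0.185% and 0.157% of TH- UMIs and 0.602%, 0.641%, 0.618% and 0.616% of BCL UMIs, with no overlap.

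Markers of bipolar types followed the same direction: 13 of 14 were tested, 11 were higher in BCL (10.2% of all tested genes were) and none in TH-, with a median of -1.89. Scgn, the calcium-binding protein secretagogin of several cone bipolar types, measured 13.1, 28.9, 59.5, 29.9 and 0 CPM in TH- and 132 to 221 CPM in BCL (log2 fold change -2.71, SE 0.33, section-level adjusted p = 3.18e-09). Sebox, a homeobox gene, measured 7.05 to 63.6 CPM in TH- and 165 to 274 CPM in BCL (log2 fold change -2.68, SE 0.29, section-level adjusted p = 9.19e-11). Car8, a carbonic anhydrase relative, and Neto1, an auxiliary subunit of kainate receptors, had log2 fold changes of -2.41 and -2.35. Prkca, the protein kinase C alpha that stains rod bipolar cells, was named after its values were seen. It differed less, with 388 to 665 CPM in TH- and 920 to 1130 CPM in BCL (log2 fold change -0.97, SE 0.14, section-level adjusted p = 6.97e-08).

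The bipolar lists were not at 0 in TH- libraries, and their level varied among them. The transcription factor list took 0.0960%, 0.191%, 0.212%, 0.133% and 0.0895% of the UMIs of TH- libraries 1 to 5, against 0.549%, 0.543%, 0.449% and 0.497% in BCL. Libraries 2 and 3 were highest in all 3 bipolar lists, with the type markers at 0.163% and 0.147% against 0.0719% to 0.107% in the other TH- libraries and 0.337% to 0.399% in BCL. Gnao1 was the most abundant gene of the cascade and Prkca of the type markers. The TH+ libraries of the same sections held 0.0976% of factor UMIs (SD 0.0214, n = 5). The part of bipolar RNA in the TH- differences was not tested.

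Synaptic release genes divided by synapse type. Bipolar cells and photoreceptors release glutamate at ribbon synapses, and amacrine cells use conventional ones. Of 10 conventional synapse genes, 9 were tested, 7 were higher in TH- (11.0% of all tested genes were) and none in BCL, with a median of 1.09. Cplx2, a complexin that gates release, measured 709 to 1022 CPM in TH- and 192 to 222 CPM in BCL (log2 fold change 2.02, SE 0.15, section-level adjusted p = 4.92e-16). Syn1 and Syn2, synapsins that are absent from ribbon terminals, had log2 fold changes of 1.32 and 2.77. The GCL held even more of the list, 1.03% of UMIs (SD 0.0167, n = 4) against 0.809% in TH- (SD 0.0816, n = 5) and 0.492% in BCL (SD 0.0116, n = 4).

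Of 11 ribbon synapse genes, all tested, 7 were higher in BCL (10.2% of all tested genes were) and 1 in TH- (11.0%), with a median of -1.23. Slc17a7, the vesicular glutamate transporter VGLUT1, measured 664, 515, 826, 709 and 550 CPM in TH- and 1821, 1962, 2465 and 2091 CPM in BCL (log2 fold change -1.68, SE 0.13, section-level adjusted p = 8.87e-16). Cacna1f, the calcium channel of ribbon terminals, and Ctbp2, whose product RIBEYE builds the ribbon, had log2 fold changes of -1.90 and -1.32. All of these were higher still in the ONL, with 3983 CPM of Slc17a7 (SD 559, n = 4). Bsn, the active zone scaffold Bassoon of both synapse kinds, went the other way with 997 to 1353 CPM in TH- and 539 to 593 CPM in BCL (log2 fold change 1.11, SE 0.13, section-level adjusted p = 5.31e-10). Stx3, Cacna2d4, Rims2 and Syt2 were also higher in BCL, and Cplx3, Cplx4 and Cabp4 were not called.

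**Figure D5:**
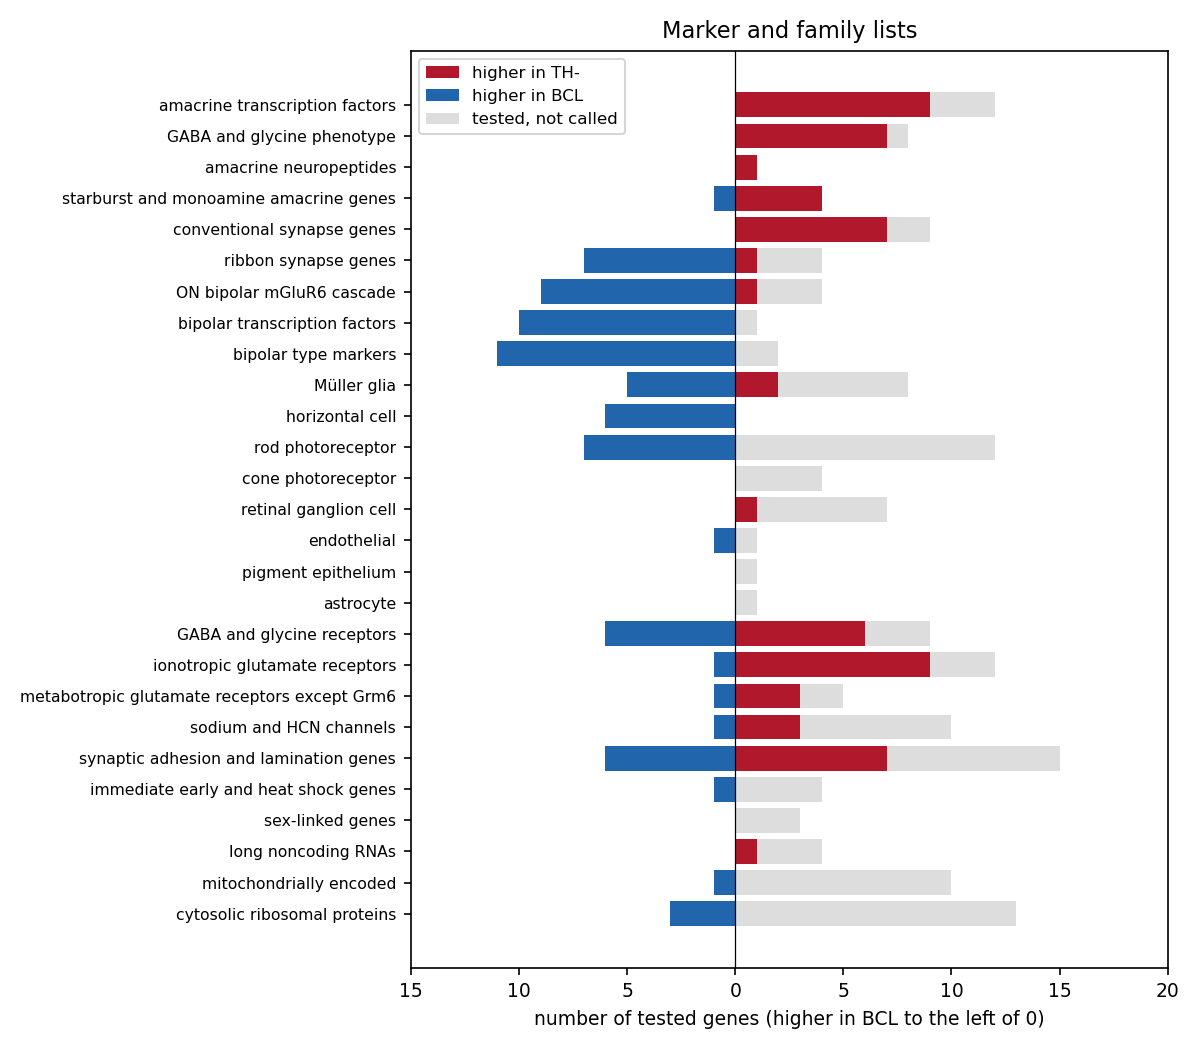
For each of 27 gene lists with a tested member, the number of genes higher in TH- (red), higher in BCL (blue, left of 0) and tested but not called (grey). The amacrine factor, GABA and glycine, and conventional synapse lists lie to the right with no blue bar, while the bipolar and horizontal cell lists lie to the left.

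Receptor families split by subunit. Of 20 GABA and glycine receptor genes, 15 were tested, 6 were higher in TH- (11.0% of all tested genes were) and 6 in BCL (10.2%), with a median of 0.51. Glra3, a glycine receptor alpha subunit, measured 178, 110, 89.3, 135 and 120 CPM in TH- and 15.5, 0, 5.08 and 14.8 CPM in BCL (log2 fold change 3.76, SE 0.42, section-level adjusted p = 1.33e-10). Gabra2, Gabra3 and Gabrg3, subunits of GABA-A receptors, had log2 fold changes of 2.26, 2.40 and 3.15. Glra2 was also higher in TH-, and Glra1, Gabrr1, Gabrr2 and Gabrr3 were among those higher in BCL. The Gabrr genes encode subunits of the slow GABA receptors known from bipolar terminals.

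Gabrr1 was named after its values were seen and measured 19.7, 75.2, 89.3, 39.9 and 0 CPM in TH- and 242, 369, 254 and 267 CPM in BCL (log2 fold change -2.64, SE 0.34, section-level adjusted p = 4.04e-06). Gabrr2, also named after its values were seen, measured 0, 63.6, 119, 4.99 and 14.1 CPM in TH- and 191, 158, 117 and 188 CPM in BCL, so that TH- library 3 just reached the BCL range. Its call was narrow (log2 fold change -2.10, SE 0.64, section-level adjusted p = 0.0479). It was lost with DESeq2 (0.161), under the replicate block (0.265), without TH- library 5 (0.0907) and without any of BCL libraries 1 to 4 (0.114, 0.102, 0.0585 and 0.108). Without TH- library 3 the log2 fold change was -2.92, and its weakest value over the other settings was -1.74.

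Ionotropic glutamate receptors were mostly higher in TH-: 13 of 16 were tested, 9 rose toward TH- (11.0% of all tested genes did) and 1 toward BCL (10.2%), with a median of 1.19. Grin2b, an NMDA receptor subunit, measured 440, 393, 350, 334 and 352 CPM in TH- and 124, 106, 96.5 and 133 CPM in BCL (log2 fold change 1.70, SE 0.18, section-level adjusted p = 6.14e-11). Grik2, Grin2a and Grik3, kainate and NMDA receptor subunits, had log2 fold changes of 2.51, 2.35 and 2.22. Grid1, a delta receptor that binds synaptic adhesion proteins, went against them with 4.99 to 46.0 CPM in TH- and 61.0 to 114 CPM in BCL (log2 fold change -1.59, SE 0.36, section-level adjusted p = 0.000566). Of 7 metabotropic receptors other than Grm6, 6 were tested, 3 were higher in TH- (11.0% of all tested genes were) and 1 in BCL (10.2%), with a median of 1.50.

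Grm5, a metabotropic receptor that acts through calcium release, was the member higher in BCL, at 7.05 to 52.1 CPM in TH- and 115 to 168 CPM in BCL (log2 fold change -2.43, SE 0.33, section-level adjusted p = 2.85e-08). Grm2, a receptor of starburst cells, rose by 3.11 on the log2 scale (SE 0.69, section-level adjusted p = 0.00558), and by 3.96 without BCL library 1. Its lowest value over the other settings was 2.67. Grm8 rose by 1.95, with 44 UMIs in TH- and 11 in BCL. Of 12 sodium and HCN channel genes 11 were tested, 3 were higher in TH- (11.0% of all tested genes were) and 1 in BCL (10.2%), with a median of 0.58.

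Scn1a, a sodium channel of spiking neurons, measured 67.0 to 184 CPM in TH- and 9.60 to 40.7 CPM in BCL (log2 fold change 2.25, SE 0.34, section-level adjusted p = 4.15e-07). Scn3b, a beta subunit, had a log2 fold change of 1.91. Scn2b passed narrowly (0.71, SE 0.26, section-level adjusted p = 0.0387) and lost its call with DESeq2 (0.131) and in 9 other settings, among them each library left out except TH- libraries 2 and 3.

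Synaptic adhesion and lamination genes did not lean to one group: 21 of 23 were tested, 7 were higher in TH- (11.0% of all tested genes were) and 6 in BCL (10.2%), with a median of 0.00. Nrxn2, a presynaptic neurexin, was higher in TH-, at a log2 fold change of 1.37 (SE 0.16, section-level adjusted p = 5.97e-10). Nrxn3 went the other way by a small amount, with 730 to 1036 CPM in TH- and 935 to 1233 CPM in BCL (log2 fold change -0.40, SE 0.13, section-level adjusted p = 0.0172). That call was lost with DESeq2 (0.0778), under the replicate block (0.0576) and without TH- library 1 (0.0552), BCL library 1 (0.103) or BCL library 2 (0.0580). Nlgn2, the neuroligin of inhibitory synapses, was higher in TH- (0.78, SE 0.14), and Nlgn3, Lrrtm2, Dscam and Cntn2 were as well.

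Sdk2, a sidekick adhesion molecule that guides synaptic layering, measured 59.2, 150, 119, 130 and 218 CPM in TH- and 294, 269, 269 and 376 CPM in BCL (log2 fold change -1.16, SE 0.20, section-level adjusted p = 1.19e-05). Cntn4, a contactin, was also higher in BCL (-1.11, SE 0.22, section-level adjusted p = 6.30e-05). Lrrtm4, a postsynaptic organiser, had 7 UMIs in TH- and 28 in BCL (log2 fold change -1.92, SE 0.57, section-level adjusted p = 0.00905; 0.0522 with DESeq2). Dscaml1, an adhesion molecule of self-avoidance, was called at -0.56 (section-level adjusted p = 0.0102), and not with DESeq2 (0.0723). Elfn2 was called at -0.47 (section-level adjusted p = 0.0392) and lost its call in 10 settings, among them TMM scaling (0.0575) and DESeq2 (0.167).

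Other cell types of the retina differed in how far they followed the groups. All 6 tested of 8 horizontal cell symbols, which include an older and a newer symbol of 1 gene, were higher in BCL (10.2% of all tested genes were), with a median of -2.35. Lhx1, a LIM homeodomain factor of horizontal cells, had 2 UMIs in TH- and 43 in BCL, a ratio of 21.5 (95% exact interval 5.60 to 183, counting error only; section-level adjusted p = 7.07e-07), and 0 in TH+. Onecut2, another factor of these cells, measured 6.57 to 40.5 CPM in TH- and 92.8 to 158 CPM in BCL (log2 fold change -2.54, SE 0.35, section-level adjusted p = 4.62e-08). Prox1, which some amacrine and bipolar cells share, differed less (-1.35, SE 0.14, section-level adjusted p = 6.09e-10), with 663 CPM in TH- (SD 203, n = 5). The list took 0.0579% to 0.112% of TH- UMIs and 0.219% to 0.282% of BCL UMIs, with Prox1 its most abundant gene.

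Müller glia markers were mixed: 13 of 14 were tested, 5 were higher in BCL (10.2% of all tested genes were) and 2 in TH- (11.0%), with a median of -0.32. Vim, an intermediate filament, measured 40.5 to 104 CPM in TH- and 258 to 346 CPM in BCL (log2 fold change -2.13, SE 0.22, section-level adjusted p = 1.64e-11). Rlbp1, the retinaldehyde-binding protein of these glia, measured 480, 434, 833, 739 and 536 CPM in TH- and 1228, 1295, 1138 and 1191 CPM in BCL (log2 fold change -1.01, SE 0.14, section-level adjusted p = 9.48e-08). Glul, the glutamine synthetase of glia and the most abundant gene of the list, was named after its values were seen, with 2492 to 4092 CPM in TH- and 4359 to 4924 CPM in BCL (log2 fold change -0.54, SE 0.12, section-level adjusted p = 0.000298). Abca8a and Sox9 were also higher in BCL. The list as a whole took 0.760% of TH- UMIs (SD 0.126, n = 5) and 0.968% of BCL UMIs (SD 0.0449, n = 4), and TH- library 3 overlapped the BCL range.

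Dkk3, a secreted Dickkopf protein, and Clu, the chaperone clusterin, went against the glial list. Dkk3 measured 664, 920, 818, 794 and 951 CPM in TH- and 413, 413, 330 and 460 CPM in BCL (log2 fold change 1.04, SE 0.14, section-level adjusted p = 3.14e-08). Clu rose by only 0.40 (SE 0.13, section-level adjusted p = 0.0157). The Clu call was lost under the replicate block (0.0684) and without TH- library 4 (0.0574), BCL library 1 (0.0646) or BCL library 3 (0.0779).

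Rod RNA was present in both groups. The rod list took 2.89%, 1.17%, 2.81%, 2.92% and 2.26% of TH- UMIs and 2.10%, 2.55%, 3.30% and 2.25% of BCL UMIs, and the groups overlapped, with TH- library 2 the lowest. The ONL held 10.4% (SD 0.734, n = 4) and TH+ libraries 4.12% (SD 1.25, n = 5). All 19 genes were tested, 7 were higher in BCL (10.2% of all tested genes were) and none in TH-, with a median of -0.61. Rp1, a protein of the photoreceptor axoneme, measured 336 to 592 CPM in TH- and 687 to 984 CPM in BCL (log2 fold change -1.03, SE 0.15, section-level adjusted p = 1.01e-07). Pdc and Rom1, of phototransduction and of the outer segment disc, had log2 fold changes of -0.88 and -0.86, and Reep6 of -0.64 (section-level adjusted p = 0.0191), a call lost without TH- library 5 (0.0758), BCL library 2 (0.0535) or BCL library 3 (0.0545).

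Of 9 cone genes 4 were tested and none was called by edgeR, with a median of -0.10: Opn1mw at 1.33 (section-level adjusted p = 0.0544), Opn1sw at -1.02 (0.213), Gnat2 at -0.20 (0.834) and Arr3 at 0.00. Opn1mw passed in 6 other settings, among them TMM scaling (0.0464) and without TH- library 2 (0.0109), and Opn1sw without TH- library 1 (0.00166) and with a minimum of 1 UMI (0.00223). DESeq2 called none of the 4.

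Of 12 ganglion cell markers, 7 were tested, 1 was higher in TH- (11.0% of all tested genes were) and none in BCL, with a median of 0.48. Thy1, a surface protein of ganglion cells that other inner retinal neurons carry at lower level, measured 348, 162, 223, 240 and 296 CPM in TH- and 77.4, 52.8, 30.5 and 79.1 CPM in BCL (log2 fold change 2.06, SE 0.25, section-level adjusted p = 1.88e-09). Its GCL mean was 989 CPM (SD 51.2, n = 4). The neurofilament genes Nefl and Nefh were not called (0.59 and 0.44), although Nefl passed without TH- library 2 (0.00255) or BCL library 4 (0.00733) and Nefh without TH- library 2 (0.00963). The ganglion list took 0.0959% of TH- UMIs (SD 0.0247, n = 5), 0.0576% of BCL UMIs (SD 0.0110, n = 4) and 0.730% of GCL UMIs (SD 0.0393, n = 4). The defining factors Pou4f1, Pou4f2 and Pou4f3 had too few UMIs in the 9 libraries to be tested.

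Markers of other tissues were scarce. Of 7 endothelial genes 2 were tested: Kdr, a VEGF receptor that retinal neurons also express, was higher in BCL (-1.25, SE 0.14, section-level adjusted p = 3.76e-10), and Flt1 was not called (-0.09). The median of the 2 was -0.67. Of 5 pigment epithelium genes Ttr was tested and not called (-0.30), and of 4 astrocyte genes Aldh1l1 was tested and not called (0.56). None of 8 microglia genes and none of 4 erythrocyte genes reached the minimum. Microglia genes took 0.00397% of TH- UMIs (SD 0.00268, n = 5) and 0.00645% of BCL UMIs (SD 0.00221, n = 4), and erythrocyte genes 0.000331% and 0.000856%.

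Genes that respond to handling, sex or RNA class were looked at for differences that go with the experiment. Of 12 immediate early and heat shock genes 5 were tested, and 1 was higher in BCL (10.2% of all tested genes were), with a median of 0.05. Egr1, an activity-induced factor, measured 65.7, 23.1, 29.8, 20.0 and 21.1 CPM in TH- and 119, 110, 76.2 and 54.4 CPM in BCL (log2 fold change -1.50, SE 0.35, section-level adjusted p = 0.00065). The groups overlapped, and the call was lost in a fit over all 22 libraries (0.185). Jun just missed (-1.02, section-level adjusted p = 0.0501) and passed in 3 other settings, while Fos (0.79) and Nr4a1 (0.29) were not called.

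Of 6 sex-linked genes 3 were tested and none was called by edgeR or DESeq2: Uty at -0.21, Kdm5d at 0.08 and Ddx3y at -0.05, with a median of -0.05. Eif2s3y, with 15 UMIs in TH- and 13 in BCL, fell under the minimum. These Y-linked genes were present in both groups. Xist, expressed from the inactive X chromosome of females, had 0 UMIs in all 9 libraries, which allows up to 3.74 CPM over each group (3 UMIs of the summed UMIs, counting error only).

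Of 8 long noncoding RNAs 4 were tested, and only Snhg11, a neuronal small nucleolar RNA host gene, was called (11.0% of all tested genes were called toward TH-), with 526, 700, 275, 329 and 437 CPM in TH- against 92.8, 72.0, 91.5 and 89.0 CPM in BCL (log2 fold change 2.39, SE 0.23, section-level adjusted p = 1.02e-09). The median was 0.89. Malat1, an abundant nuclear RNA, measured 4365, 6839, 3133, 2765 and 2587 CPM in TH- and 2393 to 3530 CPM in BCL (log2 fold change 0.43, SE 0.31, section-level adjusted p = 0.424). TH- library 2 was the highest for Malat1, Meg3, Rian and Snhg11, and the lowest TH- library for rod and neurofilament genes. Meg3, an imprinted nuclear RNA, measured 524 to 1423 CPM in TH- and 335 to 494 CPM in BCL, without overlap, and was just short of a call (1.01, SE 0.32, section-level adjusted p = 0.0591). It passed in 11 other settings, among them TMM scaling (0.0477), DESeq2 (0.00042) and each of TH- libraries 2 (0.000508), 3 (0.0244) and 4 (0.00243) left out.

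Of 23 mitochondrially encoded genes 11 were tested, and only mt-Tl1, toward BCL, was called (10.2% of all tested genes were called toward BCL), with a median of -0.05. Their UMIs came to 6.92% in TH- (SD 0.778, n = 5) and 6.30% in BCL (SD 0.445, n = 4), with overlap. By the study's methods, reads of a mitochondrial ribosomal RNA gene were discarded, so these shares leave it out. The large ribosomal RNA mt-Rnr2 measured 26843, 27876, 17977, 21403 and 17126 CPM in TH- and 15057, 17746, 19076 and 19226 CPM in BCL (log2 fold change 0.32, SE 0.12, section-level adjusted p = 0.0519). It passed toward TH- in 8 settings, among them TMM scaling (0.0320) and without TH- library 5 (0.00692). The oxidase subunit gene mt-Co1 (0.24, section-level adjusted p = 0.0838) passed in 2, without TH- library 2 (0.0232) and without libraries 2 and 3 together (0.0145), and mt-Nd2 in the latter alone (0.0131). Of 86 cytosolic ribosomal protein genes 16 were tested, 3 were higher in BCL (10.2% of all tested genes were) and none in TH-, with a median of -0.33. These were Rps25 at -2.46 (5 and 30 UMIs), Rps26 at -1.08 and Rps3 at -0.82 (section-level adjusted p = 0.0323). The Rps3 call was lost in 7 settings, among them DESeq2 (0.140) and TH- libraries 2 and 3 left out (-0.49, adjusted p = 0.258). Many ribosomal protein genes have near-identical processed copies, and reads with several matches were discarded by the authors, so the counts of these genes are uncertain. In GENCODE vM39, 66 of the 121 named genes share exon bases with another gene, 31 of them with a gene that had UMIs here. The counts rest on the older vM27, which may lack some of the other genes. The default settings of the authors' counting ignore strand.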

How the data were processed

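The deposited files hold UMI counts per gene and library, made by the authors: reads were aligned with STAR 2.7.9a to the mouse genome (mm39, GENCODE vM27), reads with several matches were discarded, UMIs were collapsed per gene with UMI-tools 1.1.1, featureCounts and SAMtools 1.9, and the remaining reads were given to libraries by exact barcode match. The 2 tables were joined by gene symbol, and genes with at least 30 UMIs over the 9 libraries were tested. CPM is a gene's UMIs scaled by the total of its column.

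Differences were tested with edgeR 4.0.16 (quasi-likelihood F-test, robust, library sizes as column totals) in R 4.3.3, with Benjamini-Hochberg adjusted p under 0.05. Depths were compared by two-sided exact permutation tests. DESeq2 1.42.0, other scalings, minimum counts, a replicate block, a fit over 22 libraries and libraries left out were run as alternatives. Leaving out TH- libraries 2 and 3 together was added after the data were seen. The 2 were chosen for their high levels of bipolar genes, so the larger changes of those genes without them follow from the choice and are not given.

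Genes were named by rule: Gad1, Slc32a1 and Trpm1, the 12 largest called changes per direction without overlap and with at least 100 CPM in the higher group, the 4 members of each of 29 lists with the smallest adjusted p, members called against most of their list, and sex-linked genes. Some genes that the rule names, and results that rest on them, are not reported here. Genes outside this rule with a level or fold change of their own are said to be named after their values were seen. Members of a list or set that are given by call, motif or abundance rank alone, and genes given for shared exons, are not marked. The lists and the members compared were chosen with earlier results of these data known. Gene overlaps and positions are from GENCODE vM39 (GRCm39).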

Additional observations from a re-analysis of the deposited data

Results flagged for a closer look

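Within each group, the highest and lowest library were compared with the rest, and a value was listed when the gap to its neighbour took up most of the range of the group (Dixon's ratio). Of 312 groups of values examined, over list shares, depths and 124 genes, 15 held such a value, and chance alone marks about 1 in 20 groups.

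Of the list shares, ribbon synapse genes took 0.589% of UMIs in BCL library 3 against 0.541% to 0.547% in the other BCL libraries. Immediate early and heat shock genes took 0.0283% in TH- library 3 against 0.0210% to 0.0224% in the other TH- libraries.

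TH- library 2 was the lowest for Rom1 at 185 CPM (others 352 to 419) and Nefl at 98.4 CPM (others 224 to 238), and the highest for Nrxn3 at 1036 CPM (others 730 to 784) and Rian at 208 CPM (others 35.2 to 72.3). TH- library 3 was the highest for Tafa3 at 119 CPM (others 35.2 to 57.9) and Vsx1 at 74.4 CPM (others 0 to 17.4). TH- library 5 was the highest for Meis2 at 359 CPM (others 256 to 278) and Septin4 at 169 CPM (others 79.9 to 104). It also held the only TH- UMI of Nos3 and of Parp14, which was named after its values were seen, 7.05 CPM each. TH- library 1 was the highest for Egr1 at 65.7 CPM (others 20.0 to 29.8).

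BCL library 4 was the highest for Cartpt at 24.7 CPM (others 14.4 to 15.5) and the lowest for Prox1 at 1488 CPM (others 1748 to 1790). All libraries were kept.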

How the results depend on the processing

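Up to 20 other settings were run for each gene, and no called gene was called in the opposite direction under any. Fold changes near 0 of genes that were not called, such as Kdm5d (-0.66 to 0.40), did change sign. The number of genes called toward BCL was 471 with DESeq2, against 763 with edgeR. Asking also for a log2 fold change over 1 in size left 957 genes, 529 toward TH- and 428 toward BCL. With section number as a block, 703 genes were called toward TH- and 645 toward BCL. The numbers do not pair sections of the same tissue, so the block was kept as an alternative only.

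Of the 96 called genes that were named by rule, 87 were called under every setting that gave a value. Among the genes named after their values were seen, Chat lost its call in 6 settings and Gabrr2 in 7. Without Gnao1 the mGluR6 cascade took 0.117% of TH- UMIs and 0.466% of BCL UMIs. With mitochondrially encoded genes left out of the total, the cascade took 0.661% of BCL UMIs.

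The TH- minus BCL difference in mean UMIs per library was -33550 without TH- library 3 and -50038 without TH- library 4, and with 1 library left out at a time only the latter kept an exact permutation p under 0.05.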

Other observations

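Among the 46 called genes for which all libraries of the amacrine experiment lay on one side of all libraries of the layer experiment, 11 were lower in the amacrine experiment: Nos3, Parp14, Fth1, mt-Tl1, Trak2, Eml1, Nfic, Glo1-ps, Mir6240, C530043K16Rik and Gm47175. Lars2, named after its values were seen, was on the other side, with 18590 CPM in TH- (SD 1838, n = 5) and 21370 CPM in TH+ (SD 1178, n = 5) against 9188 CPM in BCL (SD 1190, n = 4), 12511 CPM in GCL (SD 1591, n = 4) and 6735 CPM in ONL (SD 403, n = 4). Neither the cause nor the origin of the UMIs counted for Lars2 was tested.

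TH- library 2 combined the highest TH- levels of the nuclear RNAs Malat1 (6839 CPM), Meg3 (1423 CPM) and Rian (208 CPM) with the lowest rod share, 1.17% of UMIs against 2.26% to 2.92% in the other TH- libraries. By the study's supplement, section 2 of the amacrine experiment had the largest share of intron reads of any retinal section. Section 1 of that experiment came next. The supplement gives these shares per section and not per barcode, and the counts used here are of exons. A link between them was not tested.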
